A study of Homo sapiens with 22 samples.

Results

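The genes described here are 10 genes of the FOXO and PI3K feedback circuit, taken by their symbols from the 35237 genes of the deposited count table: INSR, ERBB3, IRS2, PIK3IP1, FOXO1, FOXO3, CCNG2, TXNIP, SESN3 and KLF9. All 10 symbols were found. They were followed through 22 RNA libraries of 2 long-established neuroblastoma lines of human origin, SK-N-AS and GIMEN, which the labels call MES (mesenchymal). The study compared naive cells with cells differentiated by PP121, an inhibitor of tyrosine kinases and phosphoinositide kinases, and bufalin, a cardiac glycoside that blocks the sodium pump.

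Of SK-N-AS there were 4 groups of 4 libraries. Untreated cells grew in DMEM with 10% fetal bovine serum (FBS). The group titled S1D4 received 5 µM PP121 for 4 days with 1% FBS. The groups titled S2D4 and S2D30 began as S1D4 cells and then received 5 µM PP121 plus 100 nM bufalin in Neurobasal medium with B27 for 4 or 30 days, with no serum listed. Of GIMEN there were 2 groups of 3 libraries: untreated cells in RPMI with 10% FBS, and a D30 group given 2.5 µM PP121 plus 10 nM bufalin with 1% FBS for 30 days. Compound, serum and, in SK-N-AS, medium changed together, so their parts in any change cannot be told apart. Each line is a single established line, and the labels do not say whether the libraries of a group came from separate cultures, so p-values measure the spread between these libraries, which may be technical.

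FOXO factors are forkhead transcription factors that AKT phosphorylates and keeps out of the nucleus when insulin, IGF or neuregulin receptors activate PI3K. When PI3K or AKT is inhibited, FOXO factors enter the nucleus and are known to raise transcription of the receptors INSR and ERBB3 and of the adaptor IRS2, which feeds signal back into the pathway. TXNIP, CCNG2, SESN3, KLF9, PIK3IP1 and FOXO1 itself are further genes that have been described as FOXO targets in various tissues. Transcript levels say nothing of where FOXO proteins were in these cells.

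Library totals ran from 16456484 to 37506800 counts. Levels are given as CPM, counts scaled to library size by 1 common scaling of the 22 libraries, and log2 fold changes come from a model of each line. A gene was called when its adjusted p in edgeR's quasi-likelihood test was under 0.05, adjusted over all genes tested (15810 in SK-N-AS and 13517 in GIMEN). S2D4 replicate 4 stood apart most. It correlated with the others of its group at 0.963 to 0.965 (log2 CPM), while those 3 correlated with each other at up to 0.99. Results that rest on S2D4 are therefore also given without it where they move. Untreated SK-N-AS replicate 4 correlated with the others of its group at 0.974 to 0.98, where replicates 1 and 2 reached 0.99. Where leaving out that untreated library changed the call of a change against untreated cells, the result is given beside the gene. Untreated and S1D4 libraries of SK-N-AS also split in part by replicate number. Their deviations from the group means correlated at 0.033 to 0.311 within the sets of replicates 1 and 2 or 3 and 4. Across the sets they correlated at -0.364 to -0.005, in part because deviations within a group cancel out. Untreated replicate 3 correlated at only -0.088 to 0.061 with the S1D4 libraries, so its place with replicate 4 is weakly shown. Values under a term for these sets, added after the data were seen, are given where a call changed or a called value moved by over 1.5 times. The term covered replicates 3 and 4 of untreated and S1D4 only. Under it, S2D4 and S2D30 were compared with the fitted level of replicates 1 and 2 of those groups. Of the mesenchymal markers all 8 exceeded 1 CPM in every SK-N-AS library. Their sum was 842 to 1360 CPM untreated and 3230 to 3900 CPM in S2D30, mostly VIM (means of 937 and 2860 CPM), while FN1 went from 60.3 to 1.89 CPM. In GIMEN 7 of 8 exceeded 1 CPM in every library, and their sum was 37600 to 39200 CPM untreated and 20500 to 23500 CPM in D30. That sum was mostly FN1 (means of 31500 and 18000 CPM). The means of PRRX1, VIM, SNAI2 and FOSL1 were also lower in D30. Those of CD44 (693 and 1070 CPM) and YAP1 (194 and 213 CPM) were higher. Adrenergic markers were also present in untreated SK-N-AS, with 7 of 8 above 1 CPM and a sum of 1570 to 1760 CPM that stood at 178 to 226 CPM in S2D30. In untreated GIMEN their sum was 410 to 435 CPM, with 3 of 8 at 0 counts. The leukocyte list summed to 160 to 208 CPM in untreated SK-N-AS mostly through PTPRC (mean 177 CPM), and to 3.02 to 5.43 CPM in S2D30, with CD3E at 0 counts in these groups. The summed level of the proliferation genes MKI67 and TOP2A was 346 to 574 CPM in untreated SK-N-AS, 79.2 to 170 CPM in S1D4, 45.6 to 60.7 CPM in S2D4 and 0.348 to 1.01 CPM in S2D30. In GIMEN it was 840 to 863 CPM untreated and 11.3 to 14.6 CPM in D30. The part of these shifts in the changes below was not tested. In such bulk libraries fewer cells that make a transcript and less transcript per cell cannot be told apart.

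**Figure D1:**
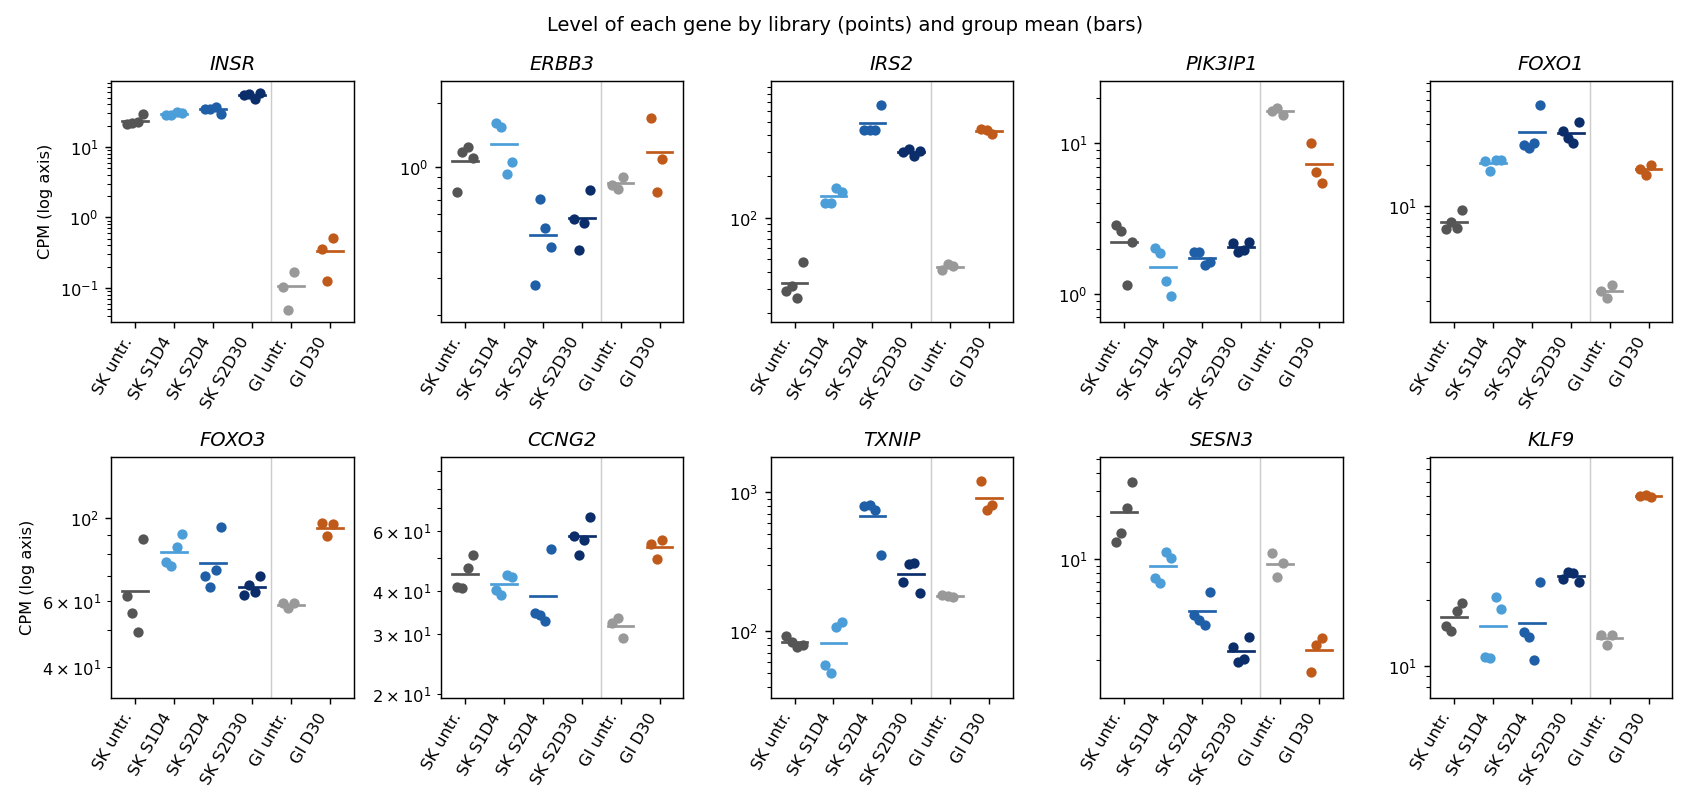
Level of each of the 10 genes in CPM (log axis, scaled separately in each panel) in every library (points) of the 4 SK-N-AS (SK) and 2 GIMEN (GI) groups, with the group mean as a bar. IRS2 and FOXO1 stand higher in each treated group than in untreated cells of the same line, SESN3 stands lower, and INSR is near 0 in GIMEN.

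The circuit split into genes that rose, genes that fell and genes that moved in some groups. IRS2 and FOXO1 rose against untreated cells in all 4 treated groups, and SESN3 fell in all 4. TXNIP rose in the 3 groups that received bufalin and was not called in S1D4.

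In S1D4, 3 genes rose (IRS2, FOXO1 and INSR), where 17.6% of all genes tested rose, and 1 fell (SESN3), where 22.4% of all genes fell. In 3 of 10 the groups did not overlap, against 37.9% of all genes. In S2D4, 4 rose (IRS2, TXNIP, FOXO1 and INSR) against 30.9% of all genes, 2 fell (SESN3 and ERBB3) against 32.2%, and 6 had groups that did not overlap, against 51.1%. In S2D30, 6 rose (IRS2, FOXO1, TXNIP, INSR, KLF9 and CCNG2) against 33.8%, 2 fell (SESN3 and ERBB3) against 36.5%, and 8 had groups that did not overlap, against 66.5%. In GIMEN D30, 6 of 9 rose (IRS2, FOXO1, TXNIP, KLF9, CCNG2 and FOXO3) against 35.5%, 2 fell (SESN3 and PIK3IP1) against 36%, and 8 had groups that did not overlap, against 75.1%. The median log2 fold change over the genes tested was 0.11, 0.05, 0.46 and 0.74 in these 4 comparisons, and over all genes it was -0.01, -0.02, -0.03 and 0.02. The shares without overlap lay near those of all genes in each comparison and are no result about these genes. The 3 SK-N-AS comparisons share the same untreated libraries.

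**Figure D2:**
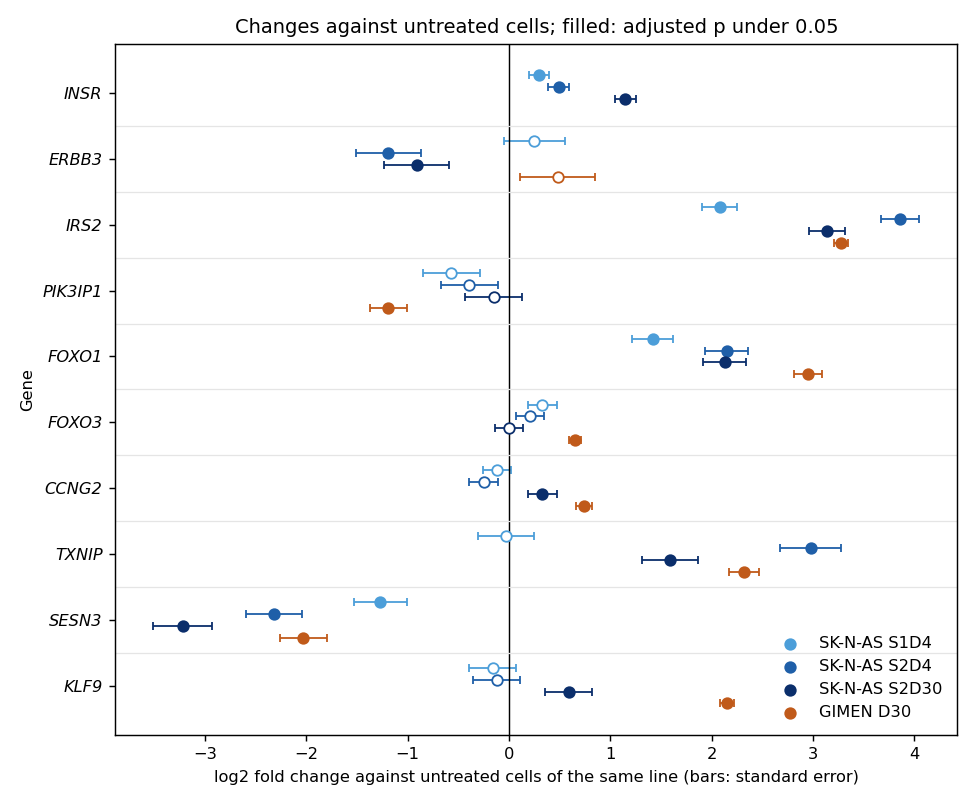
Log2 fold change against untreated cells of the same line for each gene (rows), with the standard error as a bar, for S1D4, S2D4 and S2D30 of SK-N-AS and D30 of GIMEN. Filled points have an adjusted p under 0.05; IRS2 and FOXO1 lie to the right of 0 and SESN3 to the left in all 4, and INSR has no GIMEN point because it was not tested there.

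IRS2, the adaptor that links insulin and IGF receptors to PI3K, had in each treated group the largest rise of those of these 10 genes that were tested. It stood at 28.9, 31.3, 25.7 and 47.3 CPM in untreated SK-N-AS and at 128, 127, 164 and 155 CPM in S1D4. In S2D4 it stood at 436, 434, 441 and 666 CPM, and in S2D30 at 302, 316, 280 and 306 CPM. Every treated library lay above every untreated one, S2D4 held the highest values, and replicate 4 was the highest of both the untreated and the S2D4 libraries. The log2 fold changes against untreated cells were 2.08 (SE 0.17, adjusted p 2.63e-07) in S1D4, 3.86 (SE 0.19, adjusted p 5.41e-11) in S2D4 and 3.14 (SE 0.18, adjusted p 1.6e-10) in S2D30. As folds these are 4.23, 14.5 and 8.82. In GIMEN it went from 41.5, 45.4 and 44.1 CPM to 447, 439 and 411 CPM in D30, a log2 fold change of 3.28 (SE 0.07, adjusted p 1.04e-11) or 9.71-fold. The 6 group means therefore ran from S2D4 (494 ± 115 CPM, SD, n = 4) through GIMEN D30 (433 ± 18.9, SD, n = 3), S2D30 and S1D4 to the untreated groups, and the ranges of S2D4 and GIMEN D30 overlapped. Without S2D4 replicate 4 the S2D4 change was 3.68.

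The RefSeq promoter of IRS2 is shown because this gene rose most of the 10. The window is the 250 bases before the annotated start (GRCh38.p14, chr13:109786584-109786833, minus strand), printed 5′ to 3′ on the strand of the gene. Capitals mark TGTTTTG, which is CAAAACA, a core of the insulin response element, read on the other strand, 40 to 34 bases before the start.
IRS2 promoter: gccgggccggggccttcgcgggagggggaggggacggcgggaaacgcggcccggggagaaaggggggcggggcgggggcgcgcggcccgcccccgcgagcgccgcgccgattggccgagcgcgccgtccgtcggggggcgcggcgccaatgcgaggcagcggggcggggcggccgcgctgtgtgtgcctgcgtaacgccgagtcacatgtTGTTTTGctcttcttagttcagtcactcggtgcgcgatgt
Both strands were searched for GTAAACA (the FOXO consensus), ATAAACA (a variant), CAAAACA and the E-box CACGTG. None of these 4 strings overlapped another in the windows reported here. Of 35116 RefSeq promoter windows of 250 bases, 4.3% held CAAAACA on either strand. A match of letters is a description and not a binding site.

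INSR, the insulin receptor, rose against untreated cells at each SK-N-AS stage and was nearly absent from GIMEN. It stood at 21.1, 21.7, 22.7 and 28.8 CPM in untreated cells, 28.5, 28.4, 31 and 29.9 CPM in S1D4, and 34.8, 34.6, 36.9 and 29.7 CPM in S2D4. In S2D30 the libraries held 53.7, 55.5, 47.8 and 57.2 CPM. All S2D30 libraries lay above all others, while S1D4 overlapped with untreated replicate 4. The log2 fold changes were 0.30 (SE 0.10, adjusted p 0.026), 0.49 (adjusted p 0.000406) and 1.15 (adjusted p 2.69e-08). The step from S1D4 to S2D4 was not called (0.20, adjusted p 0.106), and with the term for the replicate sets it was (0.28, adjusted p 0.0259). The S1D4 call was lost without untreated replicate 1 (adjusted p 0.0658), 2 (0.0735) or 3 (0.0615) and without S1D4 replicate 3 (0.0693) or 4 (0.0568).

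In GIMEN the pooled libraries held 6 INSR counts untreated and 16 in D30, too few for the test across genes. The ratio of the pooled rates was 3.17, with a 95% exact conditional interval of 1.18 to 9.88 that covers counting error only and not the spread between libraries. The pooled rate of untreated SK-N-AS was 227 times that of untreated GIMEN (95% interval 104 to 618). That of S2D30 was 162 times that of GIMEN D30 (95% interval 99.5 to 283). IRS2 thus rose in both lines, of which GIMEN held almost no insulin receptor transcript.

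ERBB3, a neuregulin receptor that recruits PI3K, was scarce in all groups and fell in S2D4 and S2D30 of SK-N-AS. Its group means were 1.07 ± 0.211 CPM untreated, 1.29 ± 0.343 in S1D4, 0.481 ± 0.179 in S2D4 and 0.576 ± 0.154 in S2D30 (SD, n = 4 each). The log2 fold change was -1.19 (SE 0.32, adjusted p 0.00419) in S2D4 and -0.91 (SE 0.32, adjusted p 0.0173) in S2D30, and S1D4 was not called (0.25, adjusted p 0.54). The S2D4 libraries held 0.279, 0.706, 0.518 and 0.421 CPM, all below the lowest untreated library at 0.767 CPM. In S2D30 the highest library, at 0.782 CPM, lay above that lowest untreated one on this scaling. Scaled within the line, as the test was, the S2D30 and untreated groups did not overlap. The S2D30 call was lost without S2D30 replicate 2 (-0.78, adjusted p 0.0555). In GIMEN it went from 0.838 ± 0.0603 to 1.19 ± 0.478 CPM (SD, n = 3 each), a log2 fold change of 0.48 that was not called (adjusted p 0.259). The pooled GIMEN counts were 48 and 58, a ratio of 1.44 with a 95% interval of 0.962 to 2.15.

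PIK3IP1, a membrane protein that binds the catalytic PI3K subunit and restrains it, fell in GIMEN. There it went from 16.4, 17.3 and 15.5 CPM to 10, 6.47 and 5.46 CPM, a log2 fold change of -1.19 (SE 0.18, adjusted p 0.000115). D30 and untreated libraries did not overlap. In SK-N-AS it stood much lower, at 2.21 ± 0.768 CPM untreated, 1.52 ± 0.502 in S1D4, 1.75 ± 0.185 in S2D4 and 2.06 ± 0.165 in S2D30 (SD, n = 4 each). Its SK-N-AS log2 fold changes of -0.57, -0.39 and -0.15 were not called (adjusted p 0.115, 0.23 and 0.645). Untreated replicate 3, at 1.15 CPM, was the lowest of its group, and without it the changes were -0.78 (adjusted p 0.0233) in S1D4 and -0.60 (adjusted p 0.049) in S2D4. With the term for the replicate sets PIK3IP1 was called in S1D4 (-0.58, adjusted p 0.0299) and S2D4 (-0.73, adjusted p 0.00953), and the S2D30 change was -0.49 (adjusted p 0.0607). The S2D4 and S2D30 values under the term have the fitted level of untreated replicates 1 and 2 (2.89 and 2.62 CPM) as their reference.

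FOXO1 rose in every treated group, while FOXO3 rose in GIMEN. FOXO1 stood at 6.8, 7.69, 6.92 and 9.34 CPM in untreated SK-N-AS, 21.7, 18.2, 21.8 and 21.9 CPM in S1D4, and 28.1, 26.9, 29.2 and 55.6 CPM in S2D4. In S2D30 it stood at 35.8, 31.8, 29.2 and 41.4 CPM. All treated libraries lay above all untreated ones, S2D4 and S2D30 overlapped, and S2D4 replicate 4 was far above the rest of its group. The log2 fold changes were 1.42 (SE 0.20, adjusted p 4.7e-05), 2.15 (SE 0.21, adjusted p 1.43e-07) and 2.13 (SE 0.21, adjusted p 9.12e-08). Without S2D4 replicate 4 the S2D4 change was 1.84. In GIMEN it went from 2.37, 2.11 and 2.66 CPM to 18.7, 17.1 and 20.2 CPM, a log2 fold change of 2.95 (SE 0.14, adjusted p 9.53e-09) or 7.73-fold. In the GENCODE release 29 gene models FOXO1 shares 4.32% of its exon bases with LINC00598 on the same strand, and how the authors counted reads there is not given in the sources used here. IRS2, PIK3IP1 and SESN3 share 1.41%, 0.946% and 0.88% of their exon bases with genes on the opposite strand, and ERBB3 shares 0.343% on the same strand, which the counts may not separate.

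FOXO3 stood at 61.6, 55.7, 49.6 and 87.6 CPM in untreated SK-N-AS, 76.2, 74.3, 83.5 and 90.5 CPM in S1D4, 69.9, 65.2, 72.4 and 94.4 CPM in S2D4 and 62, 66, 63.4 and 69.7 CPM in S2D30. Untreated replicate 4 lay inside the range of the treated libraries and the groups overlapped. The changes of 0.33, 0.21 and 0.00 were not called (adjusted p 0.0829, 0.205 and 0.984). Without untreated replicate 4 the first and second were 0.52 (adjusted p 0.00254) and 0.41 (adjusted p 0.00702). In GIMEN FOXO3 went from 59.3, 57.4 and 59.2 CPM to 96.8, 89.1 and 95.9 CPM, with no overlap and a log2 fold change of 0.65 (SE 0.06, adjusted p 1.63e-06). Of the 75-base stretches of FOXO3 transcripts, 21.7% also occur in other genes, among them FOXO3B, so part of its counts may be split. FOXO3B had 50 to 185 counts per library, at most 9.57% of the FOXO3 count. Per kilobase of exon, the level of FOXO3 stood above that of FOXO1 in every group, for example 8.24 against 1.23 CPM per kb in untreated SK-N-AS, 8.46 against 5.55 in S2D30 and 7.59 against 0.382 in untreated GIMEN.

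TXNIP, an arrestin-like protein that limits glucose uptake and binds thioredoxin, rose sharply between S1D4 and S2D4. Untreated SK-N-AS held 92.6, 83.8, 77.2 and 79.2 CPM and S1D4 held 57.4, 49.8, 107 and 117 CPM. In S2D4 the libraries held 797, 804, 741 and 356 CPM, and in S2D30 227, 307, 309 and 188 CPM. S1D4 libraries lay on both sides of the untreated ones, all S2D4 and S2D30 libraries lay above both, and S2D4 replicate 4 was the lowest of its group. The log2 fold change was -0.03 (SE 0.28, adjusted p 0.947) in S1D4, 2.98 (SE 0.30, adjusted p 2.22e-07) in S2D4 and 1.59 (SE 0.28, adjusted p 8.98e-05) in S2D30, or 7.89-fold and 3.01-fold for the later groups. Without S2D4 replicate 4 the S2D4 change was 3.20. In GIMEN it went from 183, 180 and 176 CPM to 1200, 739 and 805 CPM, a log2 fold change of 2.32 (SE 0.15, adjusted p 9.75e-08). D30 replicate 1 was the highest of all 22 libraries.

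Of the 2 RefSeq promoter windows of TXNIP, 1 is shown because it holds the FOXO consensus and the gene rose with IRS2 in S2D4. The other, at chr1:145995745-145995994, held none of the 4 strings. The window shown is the 250 bases before its start on the minus strand (GRCh38.p14, chr1:145996580-145996829). Capitals mark GTAAACA, 124 to 118 bases before the start.
TXNIP promoter: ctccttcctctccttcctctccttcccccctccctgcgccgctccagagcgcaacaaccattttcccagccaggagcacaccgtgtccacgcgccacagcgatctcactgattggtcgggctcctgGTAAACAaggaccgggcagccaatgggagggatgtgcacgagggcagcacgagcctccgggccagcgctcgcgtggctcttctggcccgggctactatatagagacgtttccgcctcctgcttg
Of all 35116 windows, 2.98% held GTAAACA on either strand, 3.77% held ATAAACA and 6.34% held CACGTG. Of the 10 genes, 9 had a RefSeq promoter in the table used. Besides the matches printed above, the letters ATAAACA occurred in the window of 1 of 4 FOXO3 starts and CACGTG in that of CCNG2, 30 to 25 bases before its start. The windows of INSR, PIK3IP1, FOXO1, SESN3 and KLF9 held none of the 4 strings, which says only that these letters are not in these windows.

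SESN3, a sestrin that restrains mTORC1, fell in all treated groups of both lines. Untreated SK-N-AS held 13.1, 15.3, 22.7 and 34.4 CPM, S1D4 7.43, 6.87, 11.3 and 10.2 CPM, S2D4 4.1, 3.8, 3.53 and 5.96 CPM, and S2D30 2.46, 1.95, 2.04 and 2.87 CPM. The groups descended in this order without overlap, and the spread was widest among the untreated libraries. The log2 fold changes were -1.27 (SE 0.26, adjusted p 0.00114), -2.32 (SE 0.28, adjusted p 1.88e-06) and -3.22 (SE 0.29, adjusted p 4.39e-08), so S2D30 stood 9.32-fold lower. Without untreated replicate 4, the highest of its group, the SESN3 changes were smaller, at -0.94, -1.98 and -2.89, and were still called. In GIMEN it went from 11, 7.51 and 9.49 CPM to 1.64, 2.54 and 2.83 CPM, a log2 fold change of -2.03 (SE 0.23, adjusted p 8.8e-06). SESN3 thus moved opposite to IRS2 and FOXO1 in all 4 comparisons.

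CCNG2, an atypical cyclin tied to cell cycle exit, and KLF9, a Krüppel-like factor that responds to glucocorticoid and FOXO signals, were called at 30 days. CCNG2 stood at 41.3, 40.8, 46.7 and 51 CPM in untreated SK-N-AS and at 58.1, 51.1, 56.4 and 66.2 CPM in S2D30, a log2 fold change of 0.33 (SE 0.14, adjusted p 0.0372). At 51.1 CPM, the lowest S2D30 library lay narrowly above the highest untreated one. S1D4 (42 ± 2.79 CPM) and S2D4 (38.6 ± 9.74 CPM, SD, n = 4 each) were not called, with changes of -0.12 and -0.25 (adjusted p 0.51 and 0.118). Without S2D4 replicate 4, the S2D4 change was -0.44 (adjusted p 0.000652). In GIMEN CCNG2 went from 32.3, 33.4 and 29.2 CPM to 55, 49.9 and 56.7 CPM, a log2 fold change of 0.74 (SE 0.08, adjusted p 5.63e-06). Its S2D30 call was lost without untreated replicate 1 (0.0687), 2 (0.101) or 3 (0.052) and without S2D30 replicate 1 (0.0643), 3 (0.0536) or 4 (0.121).

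KLF9 stood at 15.2, 14.5, 17.8 and 19.4 CPM in untreated SK-N-AS and at 25.1, 27, 26.7 and 24.4 CPM in S2D30, with no overlap and a log2 fold change of 0.59 (SE 0.23, adjusted p 0.0298). S1D4 (11, 10.9, 20.7 and 18.3 CPM) and S2D4 (14.3, 13.6, 10.7 and 24.2 CPM) spread on both sides of the untreated libraries, and their changes of -0.16 and -0.12 were not called (adjusted p 0.624 and 0.674). In GIMEN KLF9 went from 13.8, 12.5 and 13.8 CPM to 60.4, 60.9 and 59.9 CPM, a log2 fold change of 2.15 (SE 0.07, adjusted p 5.4e-10) or 4.44-fold. The 3 D30 libraries differed little and lay far above all other libraries of the series. The S2D30 call was lost without untreated replicate 1 (adjusted p 0.0598) or 2 (0.0787) and without S2D30 replicate 2 (0.0603) or 3 (0.0575).

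Between the stages of SK-N-AS the 10 genes moved in different directions. At the step to S2D4, bufalin, serum, medium and the days under PP121 changed together. There 3 rose (28.3% of all genes did) and 2 fell (26.8%). TXNIP rose by 3.01 (SE 0.30, adjusted p 3.84e-07), IRS2 by 1.78 (SE 0.17, adjusted p 2.92e-07) and FOXO1 by 0.74 (SE 0.20, adjusted p 0.00455). ERBB3 fell by 1.44 (SE 0.32, adjusted p 0.00125) and SESN3 fell by 1.04 (SE 0.27, adjusted p 0.00412). Without S2D4 replicate 4, the FOXO1 change was 0.42 (adjusted p 0.00794), INSR was called as well (0.26, adjusted p 0.0294) and so was CCNG2 (-0.32, adjusted p 0.00845). With the term for the replicate sets the SESN3 change was -0.61 (adjusted p 0.0184).

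From 4 to 30 days under both compounds, 3 genes rose (24.4% of all genes did) and 3 fell (26.9%). IRS2 fell by 0.72 (SE 0.17, adjusted p 0.00183), TXNIP fell by 1.39 (SE 0.28, adjusted p 0.000565) and SESN3 fell by 0.91 (SE 0.29, adjusted p 0.0156). INSR rose by 0.65 (SE 0.10, adjusted p 4.27e-05), CCNG2 by 0.58 (SE 0.14, adjusted p 0.00186) and KLF9 by 0.71 (SE 0.23, adjusted p 0.0166). IRS2 and TXNIP therefore had their SK-N-AS maximum in S2D4, whereas INSR had its maximum in S2D30. FOXO1 was not called between these groups (-0.02, adjusted p 0.942). Without S2D4 replicate 4 the FOXO1 change was 0.29 (adjusted p 0.0543) and SESN3 was no longer called (-0.71, adjusted p 0.0645). Without S2D4 replicate 3 KLF9 was no longer called (0.56, adjusted p 0.0591).

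The 30-day change was compared between the lines as an interaction over the 14 untreated and 30-day libraries (16246 genes). Doses, serum and medium differed between the lines, so the line and the protocol cannot be told apart. Of the 10 genes, 1 had a higher change in SK-N-AS (24.5% of all genes did) and 7 a lower one (25.2%). The median difference was -0.71, and over all genes it was -0.02. IRS2 differed by -0.15 (SE 0.19, adjusted p 0.545), which was not called.

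Of the 10 genes KLF9 had the largest called difference, at -1.57 (SE 0.14, adjusted p 9.41e-08). FOXO1 differed by -0.83 (SE 0.21, adjusted p 0.00396) and FOXO3 by -0.67 (SE 0.19, adjusted p 0.00653), both lower in SK-N-AS. ERBB3 (-1.39, adjusted p 0.0235), SESN3 (-1.20, adjusted p 0.0303), TXNIP (-0.75, adjusted p 0.0159), CCNG2 (-0.42, adjusted p 0.0208) and PIK3IP1 (1.01, adjusted p 0.0244) were nearer the threshold. Leaving out 1 library ended the call of each of these 5, and ERBB3 was also not called with no filter on low counts (-1.39, adjusted p 0.0602). Without GIMEN D30 replicate 1 the values were -1.02 (adjusted p 0.104) for ERBB3, -0.49 (adjusted p 0.0735) for TXNIP and -0.39 (adjusted p 0.0528) for CCNG2, and 4 genes in place of 7 were lower. The call of ERBB3 was also lost without GIMEN untreated replicate 2 (0.0546) and that of CCNG2 without GIMEN untreated replicate 3 (0.0777) or D30 replicate 3 (0.0613). That of PIK3IP1 was lost without GIMEN untreated replicate 2 (0.053), D30 replicate 2 (0.0596) or D30 replicate 3 (0.85, adjusted p 0.0677). That of SESN3 was lost without S2D30 replicate 2 (0.055) or 3 (0.0543), GIMEN untreated replicate 2 (0.073) or 3 (0.0504) and D30 replicate 2 (0.076) or 3 (-1.03, adjusted p 0.102). INSR rested on the few GIMEN counts and was not called (-0.45, adjusted p 0.558).

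**Figure D3:**
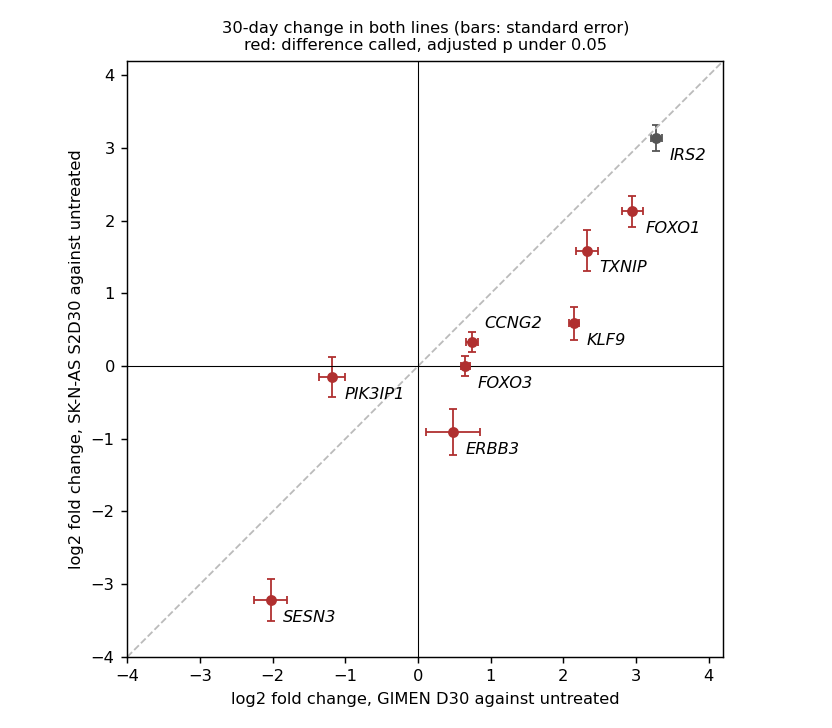
Log2 fold change of each gene after 30 days in GIMEN (horizontal axis) and SK-N-AS (vertical axis), each against untreated cells of the same line with its standard error; the dashed line marks equal changes. IRS2, in grey, lies within its standard error of the line of equal change, 7 of the other genes lie below it and PIK3IP1 above it, and INSR is not drawn because it was not tested in GIMEN.

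Before treatment SK-N-AS stood higher than GIMEN in 5 of 10 (38.6% of all genes did) and lower in 3 (35.3%), shares not far from those of all genes. FOXO1 (1.68, SE 0.17, adjusted p 9.8e-08), SESN3 (1.17, SE 0.27, adjusted p 0.000896), CCNG2 (0.49, SE 0.10, adjusted p 0.000388), KLF9 (0.30, SE 0.10, adjusted p 0.0122) and INSR were higher in SK-N-AS. PIK3IP1 (-2.88, SE 0.24, adjusted p 9.71e-09), TXNIP (-1.12, SE 0.17, adjusted p 1.36e-05) and IRS2 (-0.41, SE 0.14, adjusted p 0.0135) were lower. Upper-quartile scaling, which moved the median of all genes by 0.153 here, left IRS2 uncalled (-0.26, adjusted p 0.109). The KLF9 call was lost without GIMEN untreated replicate 2 (0.24, adjusted p 0.078). ERBB3 (0.32) and FOXO3 (0.10) were not called.

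Across the 6 group means the patterns of the 10 genes were compared in pairs. The distance used is also small where both genes change little. The smallest root mean square difference of centred log2 CPM between members was 0.29, between FOXO3 and CCNG2, and that between IRS2 and FOXO1 was 0.84. Among all genes with a mean of at least 10 CPM, the pattern most like that of IRS2 was that of GRAMD1B (0.17), and for FOXO1 those of TRIB3 (0.24) and IER3 (0.30). GRAMD1B stood at 10.2, 56.3, 167 and 78.6 CPM in untreated, S1D4, S2D4 and S2D30 SK-N-AS, and at 13.8 and 137 CPM in GIMEN. The nearest genes were LTBR (0.24) for INSR, C2orf68 (0.10) for ERBB3, MMP2 (0.16) for PIK3IP1, GNL1 (0.06) for FOXO3, TRIM13 (0.08) for CCNG2, CDK17 (0.38) for TXNIP, HMGB3 (0.26) for SESN3 and ZC3H6 (0.10) for KLF9. LTBR shared with INSR a level near 0 in GIMEN, at 0.436 CPM untreated and 0.879 CPM in D30 against 63.8 to 155 CPM in the SK-N-AS group means. These distances compare 6 group means and carry no test.

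A wider list of 76 other genes of the pathway, ordered by role, gave the surroundings. In S1D4, 17 of 69 tested rose and 14 fell, where 17.6% and 22.4% of all genes did, with a median log2 fold change of -0.04. In S2D4, 33 rose and 19 fell (30.9% and 32.2% of all genes), with a median of 0.28. In S2D30, 37 rose and 23 fell (33.8% and 36.5%), with a median of 0.49. In GIMEN D30, 36 of 69 rose and 24 fell (35.5% and 36%), with a median of 0.31. ARRDC4, BCL6, FBXO32, FGFR1, SGK1 and TRIB3 rose in all 4 comparisons. AKT1, CAT, EIF4EBP1, FOXM1, PIK3R2 and PIK3R3 fell in all 4.

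Of the 23 other FOXO targets on the list 18 were tested. In S1D4, 7 rose and 2 fell, where 17.6% and 22.4% of all genes did. In S2D4, 8 rose and 4 fell (30.9% and 32.2% of all genes), in S2D30 12 rose and 4 fell (33.8% and 36.5%), and in GIMEN D30 14 rose and 3 fell (35.5% and 36%). FBXO32, the muscle ubiquitin ligase atrogin-1, rose by 1.60, 2.15 and 2.90 in the SK-N-AS stages and by 4.47 in GIMEN. BCL6, a transcriptional repressor, rose by 1.77, 2.83, 3.70 and 2.81 in the same order. ARRDC4, an arrestin relative of TXNIP, rose by 1.10, 3.33 and 2.08 in SK-N-AS and by 0.94 in GIMEN, so like TXNIP it had its SK-N-AS maximum in S2D4. CITED2, a co-regulator of transcription, changed by -0.66 in S1D4 and then by 2.09 and 3.21, and by 1.32 in GIMEN. KLF6 rose by 1.32, 2.84 and 2.37 in SK-N-AS and was not called in GIMEN (0.02, adjusted p 0.846). Among the FOXO targets that fell, CAT did so in all 4 comparisons. PDK4, named after its value was seen, had at most 3 counts in each untreated GIMEN library and was called higher in D30. Its fold is not given because the untreated group was at the detection floor.

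Among receptors and adaptors, 6 of 10 tested rose and 4 fell in S2D30 (33.8% and 36.5% of all genes), and 4 rose and 3 fell in GIMEN D30 (35.5% and 36%). IRS1, the paralogous adaptor of IRS2, moved in opposite directions in the lines. It stood at 7.37, 7.74, 6.49 and 10.6 CPM in untreated SK-N-AS, 10.2, 9.37, 16.8 and 16.3 CPM in S1D4, and 77, 67.5, 54 and 80.9 CPM in S2D30, with log2 fold changes of 0.68, 2.83 and 3.08 (adjusted p 0.00985, 3.48e-09 and 6.48e-10). In GIMEN IRS1 went from 292, 281 and 295 CPM to 134, 136 and 120 CPM, a change of -1.18 (adjusted p 2.35e-08). The difference of the 30-day change was 4.24 (SE 0.20, adjusted p 7.28e-11), where that of IRS2 was -0.15. IGF1R changed by -0.06, 0.32 and 0.55 in SK-N-AS and 0.46 in GIMEN (adjusted p 0.739, 0.0328, 0.000713 and 4.16e-05). Its S2D4 call was lost without untreated replicate 1, 2 or 3 or S2D4 replicate 1, 2 or 3, with adjusted p from 0.0543 to 0.12.

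Of 9 PI3K subunits, 4 rose and 3 fell in S2D30 (33.8% and 36.5% of all genes), and 4 rose and 4 fell in GIMEN D30 (35.5% and 36%). PIK3R3, a regulatory subunit, fell throughout, with log2 fold changes of -1.94, -2.65 and -2.45 in SK-N-AS and -3.70 in GIMEN. PIK3R1, another regulatory subunit, rose by 0.79 in S2D4, 0.60 in S2D30 and 0.91 in GIMEN D30, with S1D4 at 0.19 (adjusted p 0.347). The catalytic subunit PIK3CA was called in S2D4 (0.28, adjusted p 0.0272) and in GIMEN (0.65, adjusted p 5.38e-06), and the S2D4 call was lost without untreated replicate 1 (adjusted p 0.0575) or 2 (0.102) or S2D4 replicate 1 (0.0515) or 4 (0.0618). Without untreated replicate 4 it was called in S1D4 (0.25, adjusted p 0.0319) and S2D30 (0.25, adjusted p 0.0194). With the term for the replicate sets it was 0.42 in S2D4 (adjusted p 0.00107) and was called in S2D30 (0.26, adjusted p 0.0213). PIK3C2B, another PI3K catalytic subunit, fell in SK-N-AS (-0.65, -2.68 and -1.92) and stood at -0.07 in GIMEN (adjusted p 0.762).

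Of 20 AKT and mTOR kinases and their regulators, 9 rose and 9 fell in S2D30 (33.8% and 36.5% of all genes), and 8 rose and 9 fell in GIMEN D30 (35.5% and 36%). AKT1 fell in SK-N-AS (-0.28, -0.65 and -0.51) and in GIMEN (-0.48). AKT2 fell by 0.40 in S2D30 and fell by 0.30 in GIMEN. SGK1, a kinase that shares FOXO sites with AKT and responds to glucocorticoid and osmotic stress, rose by 1.39, 4.62, 5.11 and 3.28. PDK1, whose symbol stands for pyruvate dehydrogenase kinase and not for the AKT kinase PDPK1, is counted among the 20 genes and their falls. PDK1 changed by -0.47, 0.65, -0.47 and -2.78. Its S1D4 and S2D30 calls were lost without untreated replicate 4 (adjusted p 0.0873 and 0.0625), the former also without S1D4 replicate 1 (0.0664).

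Of the FOXO family, FOXO4 rose by 0.89 in S1D4, 1.04 in S2D30 and 2.42 in GIMEN D30 and stood at -0.20 in S2D4 (adjusted p 0.206). FOXO6 fell in SK-N-AS (-1.55, -3.51 and -4.14) and had at most 3 counts in each GIMEN library. FOXM1, a forkhead factor of dividing cells, fell in SK-N-AS (-1.57, -3.49 and -7.40) and in GIMEN (-6.86), beside the proliferation markers given above. FOXO1 was thus the FOXO gene with the largest rise in each of the 4 treated groups, where S2D30 had FOXO1 at 2.13 and FOXO4 at 1.04.

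**Figure D4:**
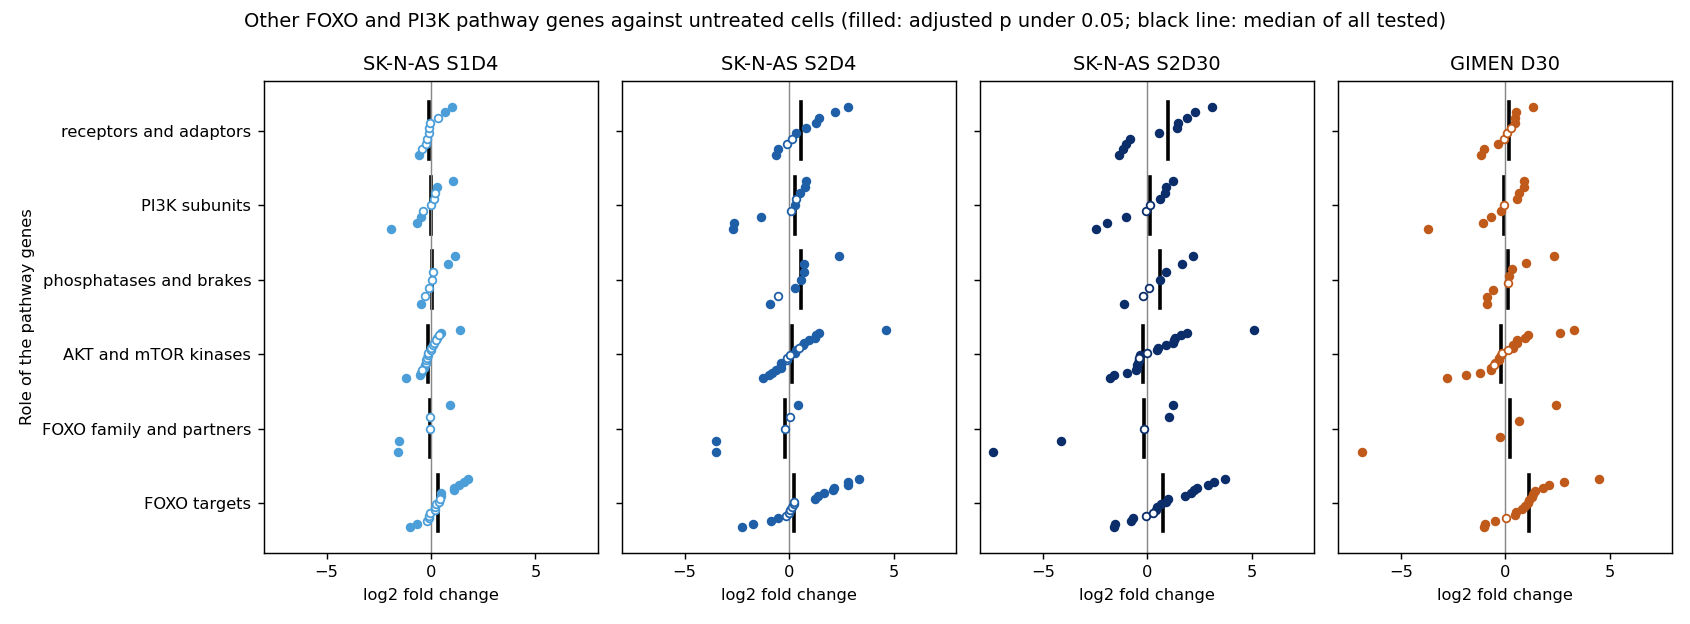
Log2 fold change of the other pathway genes by role (rows) in the 4 treated groups against untreated cells (panels). Each point is a gene, ordered by its value within a row, filled where the adjusted p is under 0.05, with a median as a black line; PDK4 in GIMEN is not drawn because its untreated group was at the detection floor. The median is over all genes tested in the row, and that of the FOXO target row is 0.77 in S2D30 and 1.11 in GIMEN D30.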

How the data were processed

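Total RNA of 16 SK-N-AS and 6 GIMEN libraries was sequenced as paired ends on an Illumina HiSeq X, per the labels' protocols. The authors deposited 1 table of raw counts per gene symbol, not normalized; whole numbers in every column were checked. The aligner, counting rules, strand setting and genome build are not given in the sources used here. Groups, doses and days came from the labels.

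Tests used edgeR 4.0.16 under R 4.3.3: filterByExpr (minimum count of 10, minimum total of 15), TMM scaling and the quasi-likelihood F-test, with Benjamini-Hochberg adjustment over all genes tested and a threshold of 0.05. One model held the 16 SK-N-AS libraries, one the 6 GIMEN libraries, and one the 14 untreated and 30-day libraries for comparisons between lines. SE is that of the fitted log2 fold change and SD that of CPM. A gene was at the detection floor with at most 3 counts in each library of a group. The steps were tested on simulated data. Counts carried no molecular identifiers, so counting intervals cover counting error only.

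The 10 genes, the wider list, the markers and the tests were chosen with earlier results of these data known. The text names the 10 genes, the partners FOXO4, FOXO6, IRS1, IGF1R, PIK3CA, PIK3R1, AKT1 and AKT2, and of the wider list the 3 largest called rises and falls per treated group with a mean of at least 5 CPM and no overlap. It also names the nearest genes in pattern (mean of at least 10 CPM). Genes called in all 4 comparisons are named as a group. Some genes that these rules cover are not reported here. Promoters are from RefSeq (GRCh38.p14) and gene models from GENCODE release 29.

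Alternatives were size factors of DESeq2 1.42.0, its own test, upper-quartile scaling, no filter, a filter at a mean of 10 counts, a minimum of 1 for the size of a log2 fold change, a replicate block, models of the compared groups alone or of all 22 libraries, and leaving out each library. A term for replicates 3 and 4 of untreated and S1D4 was added after the data were seen.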

Additional observations from a re-analysis of the deposited data

Results flagged for a closer look

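Within groups of 4, the gap of the highest or lowest library to its nearest neighbour, as a share of the group's range, was compared with Dixon's 95% critical value. Of 112 groups tested over 28 named genes, 10 exceeded it. Chance flags about 1 in 20 independent groups. The genes share the same 16 SK-N-AS libraries, so the groups are not independent and the count cannot be set against that rate. Of the 10, 8 were S2D4 replicate 4. It was the highest library for IRS2 (0.97), FOXO1 (0.92), CCNG2 (0.907), PIK3R1 (0.92), FOXO6 (0.983) and FOXM1 (0.963), and the lowest for TXNIP (0.859) and PIK3R3 (0.901). S1D4 replicate 2 was the lowest library for FOXO1 (0.946), at 18.2 CPM against 21.7 to 21.9 CPM. Untreated replicate 4 was the highest for IGF1R (0.866).

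The 30-day change differed between SK-N-AS and GIMEN, by the interaction test with an adjusted p under 0.05, for 22 of the 28 named genes. Of all genes 24.5% had a higher and 25.2% a lower difference, and since some of the 28 were named for the size of their changes, the count is partly fixed by that choice. Differences are SK-N-AS minus GIMEN on the log2 scale, and the protocols of the lines differed. Of the 10 genes of the circuit, the difference was -1.57 for KLF9, -1.39 for ERBB3, -1.20 for SESN3, -0.83 for FOXO1, -0.75 for TXNIP, -0.67 for FOXO3, -0.42 for CCNG2 and 1.01 for PIK3IP1. Among upstream genes it was 4.24 for IRS1, 1.81 for SGK1, 1.24 for PIK3R3, -0.55 for PIK3CA and -1.86 for PIK3C2B. For PDK1, the pyruvate dehydrogenase kinase, it was 2.29. Among forkhead factors it was -1.39 for FOXO4 and -0.55 for FOXM1, and the fitted -5.26 for FOXO6 depends on the prior count because GIMEN was at the detection floor. Among the other FOXO targets it was 2.34 for KLF6, 1.87 for CITED2, 1.13 for ARRDC4, 0.87 for BCL6 and -1.58 for FBXO32.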

How the results depend on the processing

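Of 594 log2 fold changes of the 10 genes recomputed under alternatives that keep all libraries, 572 kept their direction and their side of the threshold, and of 664 recomputed with 1 library left out, 606 did. With a minimum of 1 for the size of a log2 fold change, the circuit had 1 lower gene in S2D30, 0 higher and 1 lower in S2D30 against S2D4, 3 lower in the line difference and 3 higher in untreated SK-N-AS against GIMEN. The wider list then had 8 higher and 5 lower in S1D4, 17 and 8 in S2D4, 24 and 13 in S2D30, 15 and 6 in S2D4 against S1D4, 6 and 6 in S2D30 against S2D4, 16 and 9 in GIMEN D30, 13 lower in the line difference, and 12 and 16 between untreated lines, since fewer genes can pass. The term for replicates 3 and 4 added calls of PIK3IP1 in S1D4, so that 2 of the 10 were lower there, and in S2D4, of INSR in S2D4 against S1D4 and of PIK3CA in S2D30, with the values given beside those genes. It also turned 3 values that were uncalled with and without it, KLF9 (0.17) and FOXO4 (0.02) in S2D4 and PIK3IP1 in S2D4 against S1D4 (-0.15). For S2D4 and S2D30 the term shifts the reference to the fitted level of replicates 1 and 2 of untreated or S1D4 cells.

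Other changes of sign were of uncalled values near 0. FOXO1 in S2D30 against S2D4 was 0.01 with DESeq2 size factors, 0.05 with upper-quartile scaling, 0.00 with DESeq2 and 0.02 with the replicate block. Upper-quartile scaling gave 0.00 for FOXO3 in S2D30 and -0.07 for KLF9 in S2D4 against S1D4. TXNIP in S1D4 was 0.00 in the model of the compared groups alone, and KLF6 in GIMEN was -0.02 with no filter. FOXO3 between untreated lines was -0.02 with the block. The cause was not tested.

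Leaving out 1 library at a time gave -0.24 to 0.15 for TXNIP and -0.10 to 0.08 for IGF1R in S1D4, and 1 to 2 lower genes of the 10 (2 without untreated replicate 3). It gave -0.41 to 0.03 for KLF9 in S2D4. In S2D30 it gave -0.36 to 0.05 for PIK3IP1 and -0.10 to 0.20 for FOXO3, and 1 to 2 lower genes (1 without S2D30 replicate 2). KLF9 in S2D4 against S1D4 ran from -0.25 to 0.22 and FOXO1 in S2D30 against S2D4 from -0.13 to 0.29. In GIMEN, PIK3C2B ran from -0.20 to 0.03 and KLF6 from -0.06 to 0.06. IRS2 in the line difference ran from -0.26 to 0.04, and the counts from 0 to 1 higher (0 without GIMEN untreated replicate 2, D30 replicate 2 or D30 replicate 3) and 4 to 7 lower (4 without D30 replicate 1). FOXO3 between untreated lines ran from -0.07 to 0.20.

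Same-numbered deviations of untreated and S1D4 correlated at 0.305, 0.276, 0.033 and 0.311, so not every pair exceeded 0.1 and the numbers were not taken as pairs. The split was one of replicates 1 and 2 from 3 and 4, in which untreated replicate 3 was only weakly placed. With a replicate block, FOXO3 was called in S1D4 (0.35, adjusted p 0.0144) and CCNG2 in S2D4 (-0.27, adjusted p 0.0302), IGF1R was lost in S2D4 (0.0502), and no count of calls moved by over 1.5 times. Upper-quartile scaling also called FOXO3 in S1D4 (0.0439) and CCNG2 in S2D4 (0.0262) and lost IGF1R (0.0987) and PIK3CA (0.0697) in S2D4, as did the model of the compared groups alone (0.0956 and 0.0849). Without a filter ERBB3 was lost in the line difference (0.0602). The model of all 22 libraries lost CCNG2 (0.0995) and TXNIP (0.145) in the line difference and KLF9 between untreated lines (0.209). A model of the 2 compared groups is the main model in GIMEN. Low counts of the gene limited INSR in GIMEN and ERBB3 in every group, and CPM moved by at most 1.13 times between scalings.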

Other observations

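The genes of this paragraph belong to the wider list and were named after their values were seen. SESN2 rose in S2D4, S2D30 and GIMEN D30, where SESN3 fell. SESN2, a sestrin induced by metabolic stress, went from 11.4 to 14.5 CPM in untreated SK-N-AS to 16.5 to 37.2 CPM in S2D4 and 45.6 to 51.1 CPM in S2D30, with log2 fold changes of 1.25 (adjusted p 5.48e-05) and 1.89 (adjusted p 3.97e-07). In GIMEN D30 it rose by 0.36 (adjusted p 0.00499), where SESN3 had a change of -2.03. SESN1 had changes of -0.41 in S2D4 (adjusted p 0.0495) and -0.67 in GIMEN D30 (adjusted p 0.000276), and was not called in S1D4 or S2D30. DDIT4, another brake on mTORC1, had a change of -1.19 in S1D4 (adjusted p 3.55e-05), rose by 0.95 in S2D4 and 0.90 in S2D30, and had a change of -1.20 in GIMEN D30 (adjusted p 5.39e-08). TRIB3, a pseudokinase that binds AKT and the gene whose pattern lay closest to that of FOXO1, rose by 1.16, 2.41 and 2.17 in SK-N-AS and by 2.35 in GIMEN.

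The receptors FGFR1, EGFR and ERBB2 also belong to the wider list and were named after their values were seen. FGFR1, a fibroblast growth factor receptor, stood at 154 to 177 CPM in untreated SK-N-AS and 592 to 688 CPM in S2D30, and at 131 to 135 and 313 to 362 CPM in GIMEN, with changes of 1.91 (adjusted p 1.04e-08) and 1.33 (adjusted p 1.2e-08). EGFR changed by -0.58 in S1D4 (adjusted p 0.0302) and by 1.41 and 1.47 in S2D4 and S2D30, and was not called in GIMEN (0.07, adjusted p 0.326). ERBB2, the partner of ERBB3, fell in S2D4 and S2D30 as ERBB3 did, with changes of -0.55 in S2D4 (adjusted p 0.00649), -0.84 in S2D30 (adjusted p 0.000195) and -0.33 in GIMEN D30 (adjusted p 0.00864).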
